A study of Mus musculus with 5 samples.

Results

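The proteasome subunit genes were examined in whole mouse lung, as the genes whose symbol is Psma, Psmb, Psmc, Psmd or Psme followed by a number. Of 43 such protein-coding genes in RefSeq, 41 had a probe set of their own on the array, out of 12393 genes in all. Psme2 was covered together with another gene and Psmb11 was not analysed here. The probe set with the highest mean stood for each gene. Psmb8, Psmb9, Psmb10 and Psme1, 4 subunits of the immunoproteasome, were set against the 37 others.

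The series holds 5 arrays, each of RNA pooled from lungs of 1 condition, with no replicate. The induced pool came from SM22-tet-BMPR2delx4+ mice on doxycycline, which turns on a mutant receptor for bone morphogenetic protein in cells that use the SM22 (transgelin) smooth muscle promoter, and had a right ventricular pressure of 50 ± 8 mmHg. The uninduced pool had the same genotype with no doxycycline and a pressure of 30 ± 3 mmHg. SM22-rtTA mice, which have the doxycycline-dependent activator without the mutant receptor, were also on doxycycline and at 30 ± 3 mmHg. The titles of these 3 pools give 8 weeks without saying of what. The hypoxic pool was fvb/n mice 8 weeks old with 4 weeks of hypoxia and a pressure of 50 ± 8 mmHg, and its control was wild-type fvb/n mice of the same age at 30 ± 3 mmHg. The number of animals in a pool and the strain of the transgenic mice are not stated in the labels.

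The proteasome is the protease that breaks down proteins tagged with ubiquitin. Its barrel, the core particle, stacks rings of alpha subunits, which gate the entrance, on rings of beta subunits, of which Psmb5, Psmb6 and Psmb7 carry the active sites. A regulatory particle of ATPases (Psmc genes) and other subunits (Psmd genes) binds, unfolds and feeds in the substrate. Interferon and cells of the immune system replace the active subunits by Psmb8, Psmb9 and Psmb10, and Psme1 and Psme2 form an activator that caps the barrel; this immunoproteasome trims peptides for display on MHC class I.

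Promoter sequences are shown for Psmb8 and Psmb9, the subunits whose pools differed most, and for 2 of the constitutive subunits that they replace. They come from RefSeq on GRCm38.p6, which is the C57BL/6J genome and not that of these mice. Each runs 5′ to 3′ on the strand of its gene up to the base before the transcription start, and 34 of the 41 genes had an entry in the table. Capitals mark a match to 1 motif, searched on both strands. In Psmb8 the motif is the gamma-activated site TTCNNNGAA, which STAT factors bind. In Psmb9 it is the GC box GGGCGG. In Psmb5 and Psmb6 it is the core of the antioxidant response element, TGACNNNGC, the type of site used by Nfe2l1 and Nfe2l2.
Psmb8, chr17:34197945-34198194, plus strand: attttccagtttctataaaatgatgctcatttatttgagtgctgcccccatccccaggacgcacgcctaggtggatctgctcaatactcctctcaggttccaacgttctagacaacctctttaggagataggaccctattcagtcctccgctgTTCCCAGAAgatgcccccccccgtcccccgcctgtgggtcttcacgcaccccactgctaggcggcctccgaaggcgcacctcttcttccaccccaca
Psmb9, chr17:34187331-34187555, minus strand: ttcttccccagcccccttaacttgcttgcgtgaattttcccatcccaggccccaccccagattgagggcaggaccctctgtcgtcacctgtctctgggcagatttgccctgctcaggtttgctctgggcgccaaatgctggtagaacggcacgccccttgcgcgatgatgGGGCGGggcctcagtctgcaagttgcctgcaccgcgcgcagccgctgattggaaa
Psmb5, chr14:54617996-54618245, minus strand: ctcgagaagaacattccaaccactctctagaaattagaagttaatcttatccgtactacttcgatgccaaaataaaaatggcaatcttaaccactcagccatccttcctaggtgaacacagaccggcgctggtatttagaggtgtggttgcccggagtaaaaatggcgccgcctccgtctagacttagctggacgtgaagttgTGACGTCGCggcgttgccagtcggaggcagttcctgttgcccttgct
Psmb6, chr11:70525107-70525356, plus strand: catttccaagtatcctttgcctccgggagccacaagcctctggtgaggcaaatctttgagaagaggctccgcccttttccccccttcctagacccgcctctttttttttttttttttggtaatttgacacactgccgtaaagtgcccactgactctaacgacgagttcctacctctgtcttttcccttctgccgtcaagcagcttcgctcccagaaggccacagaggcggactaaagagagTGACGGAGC
The Psmb9 stretch is 225 bases long because the start of Tap1, a peptide transporter gene on the opposite strand, lies at its other end, so that both genes share it. The match lies 89 to 97 bases before the start in Psmb8, 50 to 55 in Psmb9, 39 to 47 in Psmb5 and 1 to 9 in Psmb6. Within 250 bases before the start, the gamma-activated site was found in 1 of the 34 subunit genes with an entry and in 7.02% of the 32851 promoters in the table. The antioxidant element core was found in 5 (Psmb5, Psmb6, Psmc6, Psmd9 and Psmd12) and in 10.2% of promoters. The interferon-stimulated element core, which is GAAA, 2 bases of any kind and GAAA, was found in 3 (Psmb3, Psmd4 and Psmd9) and in 2.98%. CCAAT was found in 13 and in 33.8%, and GGGCGG in 20 and in 32.7%. These matches describe letters in the windows only.

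All pools had the 4 alveolar type 2 markers that had a probe set, Sftpc, Sftpb, Sftpa1 and Napsa, and all 5 endothelial markers above the noise floor, an intensity of 276 below which values were not ordered. Some pools also held markers of other tissues. In wild type all 7 kidney tubule markers were above the floor, with a summed intensity of 36638 against 2135 to 2912 in the other pools. Skeletal muscle markers summed to 50487 in the induced pool and 14254 in hypoxia, against 2187 to 3103 in the rest, and squamous epithelial markers to 9805 and 18645 against 1105. B cell markers summed to 4651 in SM22-rtTA and to 1500 to 1970 elsewhere. Among them Cd22 was an exception, at 737 there, 991 in hypoxia and 796 in wild type. Summed neutrophil markers were highest in the uninduced pool (14525) and lowest in wild type (1835). Most of the uninduced sum came from S100a8 (7120) and S100a9 (6283), both at the floor in wild type. Ngp went the other way, at 420 in the uninduced pool and 730 in wild type. Camp was at the floor throughout, and Cxcr2 was above it in the uninduced pool alone, at 425. Since bulk RNA was measured, fewer cells of a type and less RNA per cell cannot be told apart.

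Of the 41 genes, 40 exceeded the floor somewhere and 38 did so in all pools. Psma8, the alpha subunit of testis, was at the floor throughout, and Psmd10, which helps assemble the regulatory particle, was above it in the induced pool alone, at 299. The subunits differed little between pools. Over the 38 genes the median ratio of the highest to the lowest pool was 1.38-fold, against 1.59-fold for the 5904 genes of the array that were above the floor in all pools. The highest and lowest pools were less than 1.5-fold apart for 27 of these 38 genes, and for 40.6% of the 5904.

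The classes differed in which pool was highest or lowest. All 7 beta ring genes were highest in wild type, as were 4 of 7 alpha ring genes. The regulatory particle had 12 of 17 genes lowest in hypoxia and 8 highest in the induced pool. All 4 immunoproteasome genes were highest in SM22-rtTA, and 3 were lowest in wild type. Over all 8590 measured genes, 24.9% were highest in wild type, 19.9% highest in the induced pool, 15.3% highest in SM22-rtTA, 14.9% lowest in hypoxia and 23.6% lowest in wild type. These counts were taken after the values were seen. With values as deposited, 5 of 7 beta ring and 1 of 7 alpha ring genes were highest in wild type, 13 of 17 regulatory genes were lowest in hypoxia, and all 4 immunoproteasome genes were lowest in wild type. After quantile normalization these numbers were 7, 1, 9 and 4. With the mean of all probe sets of a gene, 6 of 7 beta ring and 3 of 7 alpha ring genes were highest in wild type. By that summary 6 regulatory genes were lowest in hypoxia and 4 were highest in the induced pool. Further probe sets of Psmb1, Psmb3 and Psmb4 were highest in the induced pool, at 378, 1338 and 1377, and at 302, 869 and 1174 in wild type.

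**Figure D1:**
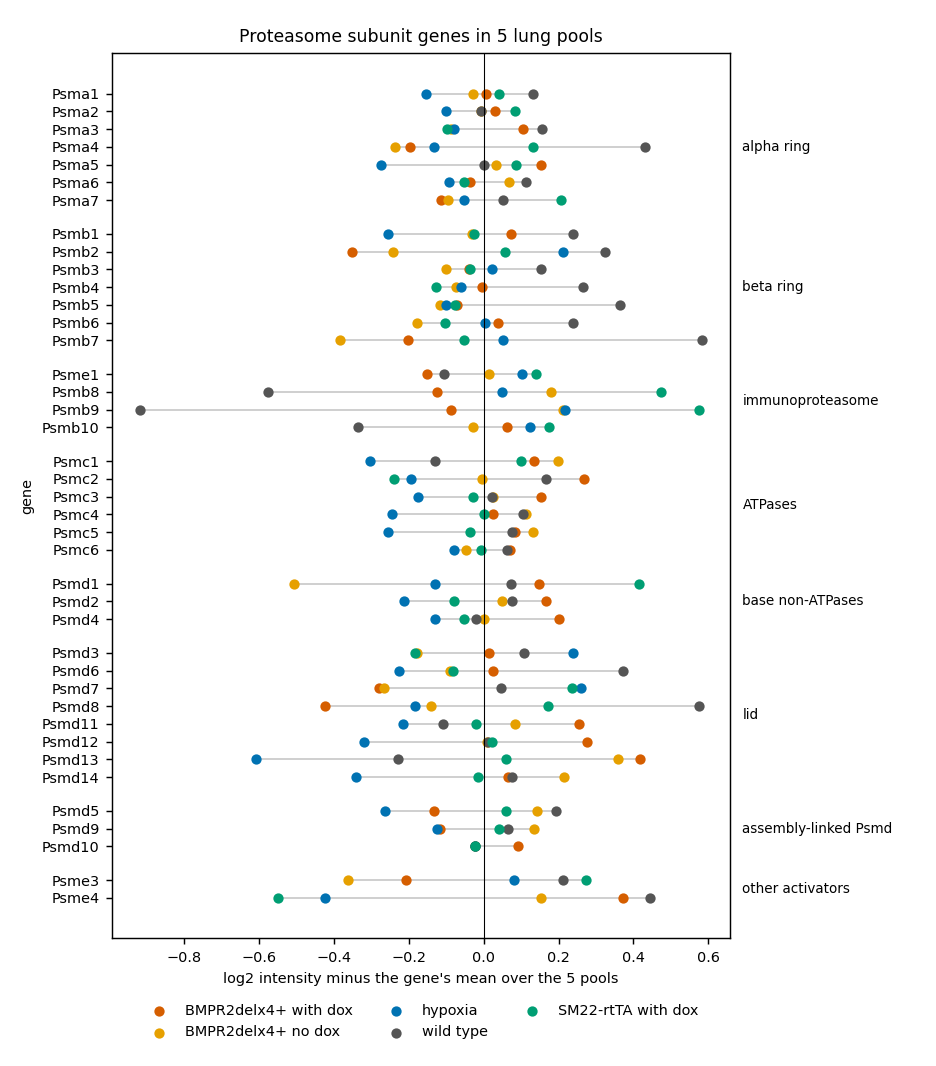
Each point is 1 pool for 1 gene, plotted as log2 intensity minus the mean of that gene over the 5 pools, with genes on the vertical axis grouped by structural class and a grey line from the lowest to the highest pool. The wild-type points lie at the right end in all 7 beta ring genes and at the left end in Psmb8, Psmb9 and Psmb10, while most hypoxia points of the ATPases and the lid lie at the left.

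The median ratio of highest to lowest pool was 1.72-fold for the immunoproteasome subunits and 1.36-fold for the others. Psmb9 (2.81-fold) and Psmb8 (2.07-fold) varied more than that, while Psmb10 (1.42-fold) and Psme1 (1.22-fold) stayed under 1.5-fold. Psmb8, the counterpart of Psmb5, was at 607 in the induced pool, 750 in the uninduced pool, 685 in hypoxia, 444 in wild type and 919 in SM22-rtTA. Psmb9, the counterpart of Psmb6, was at 563, 692, 694, 317 and 890 in the same order. The order of these pools was nearly the same for both genes, and the wild-type value of Psmb9 was close to the floor. Psmb10, the counterpart of Psmb7, was at 1350, 1268, 1409, 1025 and 1459, so that it too was lowest in wild type, with smaller steps. Psme1, the activator subunit, was at 1983, 2221, 2363, 2044 and 2422, and here the induced pool was lowest.

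The constitutive active subunits ran the other way in wild type. Psmb5 was at 2480 there and between 1780 and 1836 in the other pools. Psmb6 was at 2205 in wild type and between 1653 and 1920 elsewhere. Psmb7 was at 3424 in wild type, 2372 in hypoxia, 2207 in SM22-rtTA, 1986 in the induced pool and 1753 in the uninduced pool. For all 3 genes wild type was thus above the whole range of the other pools, whereas for their immunoproteasome counterparts it was below it.

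**Figure D2:**
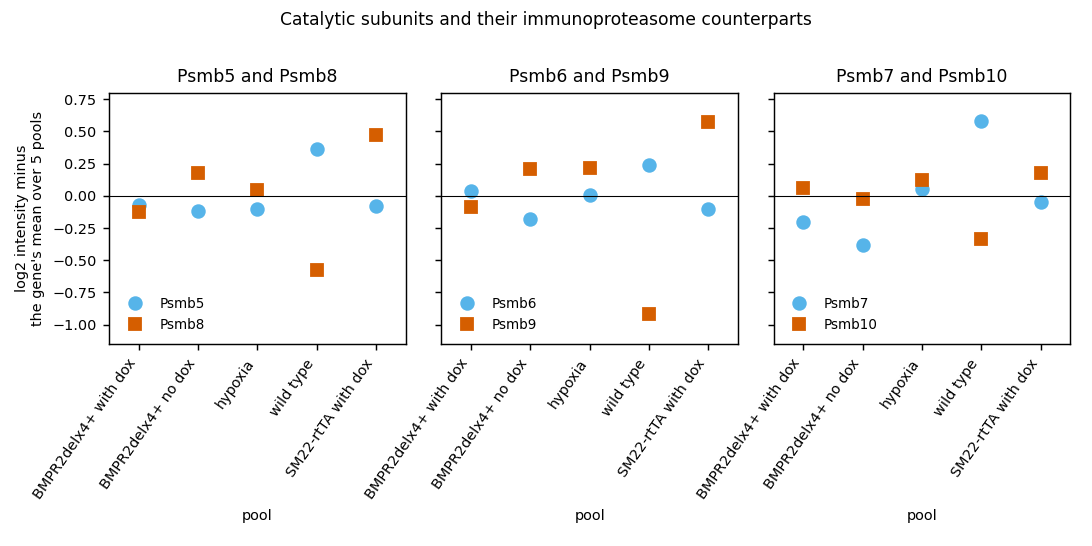
Each panel shows 1 pair of active subunits, the constitutive gene as circles and the immunoproteasome gene as squares, by pool, as log2 intensity minus the mean of that gene over the 5 pools. In wild type the circle is the highest of its gene and the square the lowest of its gene in all 3 panels, and in SM22-rtTA every square is the highest of its gene.

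Set against the mean of the transgenic normal-pressure pools, wild type had a log2 ratio of -0.90 for Psmb8 and 0.46 for Psmb5, -1.31 for Psmb9 and 0.38 for Psmb6, and -0.41 for Psmb10 and 0.80 for Psmb7. Over all subunits tested, 2 of 39 were at least 1.5-fold higher (Psmb7 and Psme4) and 2 lower (Psmb8 and Psmb9), where 17.9% and 10.8% of the 8110 genes tested on the array were. With values as deposited 0 were higher and 4 lower. The median was -0.66 for the immunoproteasome genes and 0.11 for the other subunits, a difference of -0.76 that lay between -0.676 and -0.767 with values as deposited, after quantile normalization or with a pseudocount. Other settings moved it further, to -0.56 with a floor at the 70th percentile and -0.905 with the mean of probe sets. With the catalytic immunoproteasome subunits alone it was -1.008. Without SM22-rtTA, the pool where summed B cell and macrophage markers were highest, the difference was -0.692, and with SM22-rtTA as the only control -0.892. The 27 oxidative phosphorylation genes with a probe set were all at least 1.5-fold higher in wild type, with a median of 1.17, beside the kidney markers given above. The part of kidney tissue, or of immune cell content, in the proteasome values was not tested.

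The 2 transgenic normal-pressure pools, SM22-rtTA and uninduced, were compared as pools at normal pressure in which 2 and 1 of the 7 kidney markers, in uninduced and SM22-rtTA, were above the floor. There the median log2 ratio was 0.25 for the immunoproteasome genes, all 4 of which were above 0, and 0.00 for the other subunits. The 2 of 39 subunits at least 1.5-fold higher in SM22-rtTA were Psmd1 and Psme3, and 1, Psme4, was lower, where 3.56% and 5.34% of all genes were. Psmd1, a scaffold of the regulatory particle, was at 1362 in the induced pool, 866 in the uninduced pool, 1122 in hypoxia, 1292 in wild type and 1638 in SM22-rtTA. Psme4, an activator of the core particle that works without ATP, was at 976, 840, 564, 1028 and 516. For Psmd1 the uninduced pool alone was low, and for this probe set of Psme4 SM22-rtTA and hypoxia were low. Of the other 2 Psme4 probe sets, one was at 804, 706, 550, 926 and 510 and the other at 466, 359, 473, 695 and 402, where uninduced was lowest. With the mean of probe sets 0 subunits were lower in SM22-rtTA. Psme3, the nuclear activator, was at 308 in the induced pool, at the floor in the uninduced pool, and at 376, 412 and 429 in hypoxia, wild type and SM22-rtTA. The log2 ratios of SM22-rtTA to uninduced were 0.92 for Psmd1 and -0.70 for Psme4, with neither pool at raised pressure.

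The induced pool was first set against uninduced mice of its own genotype. The proteasome was nearly level: 1 of 40 subunits was at least 1.5-fold higher, Psmd1, and 0 were lower, where 5.83% and 2.98% of all genes were. The median log2 ratio was 0.06, with 26 subunits above 0 and 14 below, and 0.01 for the 7428 genes tested. Psmd1 was not outside the range of the 3 normal-pressure pools, since SM22-rtTA was higher still, so that 0 subunits were called both at 1.5-fold and outside that range, where 3.77% of all genes were higher and 1.52% lower by that rule. In the alpha ring the ratios ran from -0.10 (Psma6, at 1907 against 2050) to 0.19 (Psma3, 2417 against 2119). In the beta ring they ran from -0.11 (Psmb2) to 0.22 (Psmb6, 1920 against 1653). Among the ATPases, which pull substrate into the core, Psmc2 was highest (1924 against 1593) and Psmc4 lowest (789 against 840). In the lid, which removes ubiquitin, Psmd12 was at 1123 against 933 and Psmd8 at 685 against 833. The assembly factor Psmd5 was at 782 against 945.

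The immunoproteasome genes had a median of -0.23 in the same comparison, against 0.08 for the other subunits, so the classes were -0.32 apart. Psmb8 and Psmb9 were each 0.30 lower on the log2 scale (607 against 750 and 563 against 692), Psme1 was at -0.16 and Psmb10 at 0.09. In the same pools skeletal muscle markers summed to 50487 against 3103, neutrophil markers to 4831 against 14525 and endothelial markers to 13116 against 16724. MHC class II and dendritic markers summed to 13031 against 15848. T cell markers were higher, at 3105 against 1840, as were B cell markers, at 1959 against 1500. Among the neutrophil, endothelial and T cell markers, Ngp (431 against 420), Kdr (3212 against 2847) and Cd3e (291 against 399) went against their lists. The 27 oxidative phosphorylation genes were all above 0, with a median of 0.58. The part of these tissues and cells in the proteasome values was not tested. Against SM22-rtTA, the other control and also on doxycycline, 1 of 40 subunits was at least 1.5-fold higher, Psme4, and 3 lower, Psmb8, Psmb9 and Psmd8, where 11.1% and 6.96% of all genes were. Here the immunoproteasome median was -0.44, with all 4 genes below 0, and that of the others 0.07. Both comparisons use the induced pool, and the second uses the pool in which summed B cell markers were highest. Summed macrophage and monocyte markers were also highest in SM22-rtTA, at 6311 against 4333 to 5467 elsewhere. Of these markers Csf1r went the other way, at 1863 in SM22-rtTA and 2005 in the induced pool. The difference between the classes was below 0 under every alternative tried for these 2 comparisons, from -0.289 to -0.385 against the uninduced pool and from -0.468 to -0.669 against SM22-rtTA. No value for the spread between replicates exists to set it against.

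**Figure D3:**
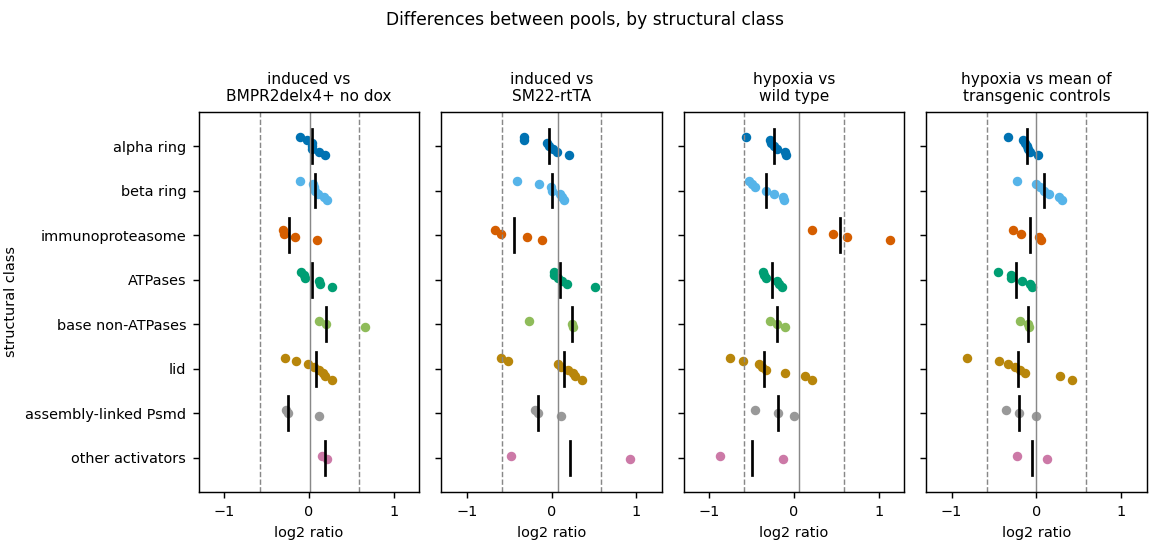
Each point is 1 subunit gene, with the log2 ratio of the pools named above the panel on the horizontal axis and the structural class on the vertical axis; black bars are class medians, dashed lines mark 1.5-fold and the solid grey line is the median of all genes tested. The immunoproteasome genes lie at or right of 0.21 in hypoxia against wild type, and between -0.28 and 0.05 when the transgenic controls take the place of wild type.

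Hypoxia was compared with wild type, its control by strain and age. Nearly all subunits were below wild type, 33 of 39, with a median log2 ratio of -0.24 against 0.06 for the 8045 genes tested. After quantile normalization the median of the subunits was -0.101. At 1.5-fold, 2 subunits were higher, Psmb8 and Psmb9, and 3 lower, Psmd6, Psmd8 and Psme4, where 8.12% and 12.7% of all genes were. The 2 higher calls were 0 with a floor at the 70th percentile and 1 with a pseudocount of 100. Outside the range of the 3 normal-pressure pools as well, 0 were higher and 2 lower, against 4.47% and 5.15% of all genes. The 14 measured alpha and beta ring genes were all below wild type, none past 1.5-fold, with log2 ratios from -0.09 (Psma2, 2167 against 2310) to -0.56 (Psma4, 1311 against 1936). The ATPases ran from -0.14 (Psmc6) to -0.36 (Psmc2, 1396 against 1793). In the lid Psmd8 was at 810 against 1367 and Psmd6 at 1299 against 1965, while Psmd7 (779 against 672) and Psmd3 (2208 against 2019) were above wild type. The immunoproteasome genes were all above it, with a median of 0.54, from 0.21 (Psme1) to 1.13 (Psmb9, 694 against 317), and 0.82 above the median of the other subunits.

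That contrast was not present against the transgenic controls. There the immunoproteasome median was -0.08 and that of the other subunits -0.14, a difference of 0.06 that changed sign with the control: it was 0.18 with the uninduced pool alone and -0.04 with SM22-rtTA alone. Psmb9 at 694 in hypoxia lay between the uninduced pool (692) and SM22-rtTA (890), and Psmb8 at 685 lay below both (750 and 919).

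In the regulatory particle 1 of 17 genes, Psmd13, was at least 1.5-fold lower in hypoxia than the mean of these controls. Of the 17 genes 15 were below 0, with a median log2 ratio of -0.20, where the alpha and beta rings had 8 of 14 below 0 and a median of -0.04, and 49.0% of all genes tested were above 0. The 6 ATPases had ratios from -0.05 (Psmc6) to -0.45 (Psmc1), none of them past 1.5-fold. Further probe sets did not all lie below 0. Those of Psmc2, Psmc4 and Psmc6 were at 0.08, 0.09 and -0.16. Those of Psmd4 were at 1.24 and -0.16, those of Psmd11 at 0.31, -0.20 and -0.40, and that of Psmd6 at 0.02. Psmc1 was at 799 in hypoxia, 901 in wild type and 1057 to 1130 in the transgenic pools. Psmd14, the lid enzyme that cuts ubiquitin off the substrate, was at 1073 in hypoxia and between 1344 and 1575 in the others. Psmd13, a structural lid subunit, was at 944 in the induced pool, 906 in the uninduced pool, 464 in hypoxia, 604 in wild type and 737 in SM22-rtTA. It was the 1 of 39 subunits at least 1.5-fold lower in hypoxia, at -0.82, and 0 were higher, where 4.58% and 13% of all genes were. It was also outside the range of the 3 normal-pressure pools, which held for 2.71% of all genes, and 10.3% were higher by that rule. Its second probe set had a ratio of -0.66. Psmd3 and Psmd7, both of the lid, were above the transgenic mean, at 0.42 and 0.28. With values as deposited the median of all subunits was -0.29 and 3 were lower, and with the mean of probe sets the median was -0.03.

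Several subunits had more than 1 probe set, and these did not always move together. For 15 genes, 20 further probe sets were above the floor in some pool. In hypoxia against wild type 17 of the 20 had the sign of the probe set that stood for the gene, with a median absolute difference of 0.115. In SM22-rtTA against uninduced only 10 did, and in hypoxia against the transgenic mean 9. In the former comparison 15 of the 20 further probe sets were below 0, with a median of -0.25, against -0.05 for the probe sets that stood for these genes. For Psmb3 the standing probe set was between 1128 and 1344 in all pools, while the other was at 1338 and 1314 in the induced and uninduced pools and at 732 to 869 in the other 3. For Psmd4, the receptor for ubiquitin chains, the standing probe set was at 1796 in hypoxia and 1937 in wild type, another was at 2656 and 1742, and the last at 980 and 1076. Psmb5, Psmb6, Psmb7 and the 4 immunoproteasome genes had 1 probe set each, so their values have no such check.

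**Figure D4:**
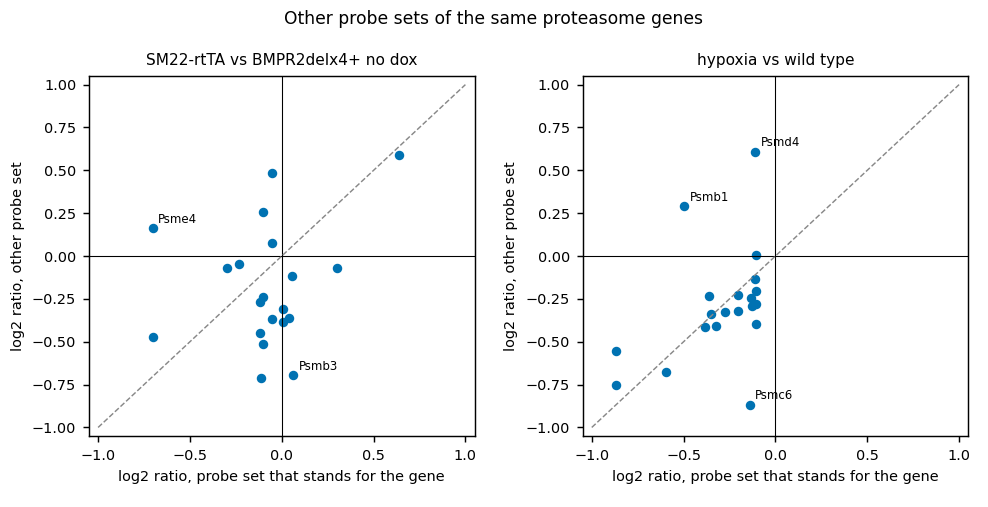
Each point is 1 further probe set of a proteasome gene, with the log2 ratio of the probe set that stands for that gene on the horizontal axis and its own on the vertical axis; the dashed line marks equal ratios. In hypoxia against wild type 17 of 20 points share the sign of the standing probe set, and in SM22-rtTA against uninduced 10 do.

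Genes that work with the proteasome were examined from lists. Of all genes tested, 5.83% were at least 1.5-fold higher and 2.98% lower after induction, against the uninduced pool. In hypoxia against the transgenic mean 13% were higher and 4.58% lower. Of 11 assembly chaperones and accessory factors with a probe set, 0 of the 10 tested after induction were 1.5-fold apart; the maturation factor Pomp was at 2542 against 1975 in the uninduced pool and the chaperone Psmg2 at 507 against 394. In hypoxia against the transgenic mean 1 of 11 was higher, the deubiquitinase Usp14, at 1575 against 947 and 785, and 0 were lower; Psmg1 was at the floor in hypoxia and at 437 and 374 in those controls. The 8 shuttle factors and p97 genes gave 0 calls in either comparison, with Vcp, the p97 unfoldase, at 3483 against 3049 after induction. Of 9 genes that control proteasome transcription, 1 was lower after induction, the small Maf gene Maff (373 against 580), and 0 were called in hypoxia against the transgenic mean; Nfe2l1, the activator of proteasome genes, was at 1614, 1806, 1363, 1160 and 1540, in the order used above. Ubiquitin genes were not analysed here. Of 3 muscle ubiquitin ligase genes with a probe set, Fbxo32 (atrogin-1) was at 610 in the induced pool and at the floor in the other 4, a log2 ratio of at least 1.14, in the pool where skeletal muscle markers were highest.

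Genes that supply MHC class I with peptides had a median of -0.22 after induction, with 7 of 9 below 0 and 0 called. Pdia3 was at 2736 against 3651, beta-2-microglobulin (B2m) at 5623 against 7410 and Calr at 3658 against 4591. Tap1, which shares the stretch before its start with Psmb9, was at 432, 388, 350, 308 and 340, lowest in wild type as Psmb9 was but highest in the induced pool. Tap2 was at 947, 890, 892, 543 and 917, again with wild type lowest. The list as a whole was not low there. Against the transgenic mean, 5 of its 9 genes were above 0 in wild type and 4 below, with a median of 0.14. At 1.5-fold 1 of the 9, Tap2, was lower and 0 were higher, where 10.8% and 17.9% of all genes were. In hypoxia against the transgenic mean this list had a median of -0.02 and 0 of 9 called. Of 15 interferon response genes tested after induction, 1 was lower (Ifit2, 313 against 480) and 0 were higher, with a median of -0.05. Over all genes 2.98% were lower and 5.83% higher. Against the transgenic mean, wild type had 5 of 15 lower, 1 higher (Irf7) and a median of -0.39. Over all genes 10.8% were lower and 17.9% higher. Of the 15 genes, 10 were below 0 and 5 above. Irf8 was at 472 in wild type and at 862 and 708 in the transgenic controls, and Gbp2 at 505 against 832 and 790. Irf7 was at 438 in wild type, at the floor in the uninduced pool and at 279 in SM22-rtTA. In the same comparison MHC class II and dendritic markers summed to 15745 in wild type, 15848 in the uninduced pool and 18578 in SM22-rtTA. The interferon genes did not run with the immunoproteasome genes throughout. In SM22-rtTA against uninduced, 12 of 15 were below 0 (median -0.123), while all 4 immunoproteasome genes were above 0. In induced against SM22-rtTA, 10 of 13 were above 0 (median 0.165), while all 4 were below 0. In hypoxia against wild type, 11 of 14 were above 0 (median 0.385), as were all 4.

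Other multi-subunit complexes were set beside the proteasome, without alternative settings. The TRiC chaperonin had all 8 genes below wild type in hypoxia, with a median of -0.28, and 7 of 8 below the transgenic mean, with a median of -0.18. The COP9 signalosome, a relative of the lid, had medians of -0.125 and -0.133, with 5 and 6 of 9 genes below 0. For the oxidative phosphorylation genes these medians were -1.16 and 0.02. The medians of the proteasome subunits in these comparisons were -0.24 and -0.14, and no test sets the lists apart.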

How the data were processed

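Lung RNA of 5 pools was hybridised to 1 oligonucleotide array each, and the sample titles gave the groups. The authors' deposited table holds linear intensities for 22626 probe sets; how they were summarised and scaled is not given in the sources used here, and no deposited value lies under 50. Each array was shifted on the log2 scale (by -0.11 to 0.13) to 1 common median of the 9046 probe sets that lay in the upper part of every array. A floor was then set at the 50th percentile of all values, an intensity of 276.2, and took the place of lower values. The platform's annotation table named the probe sets, and RefSeq gave current symbols through the gene ID (20351 of 20380 with 1 gene; 691 had several genes and 1555 none). The probe set with the highest mean stood for its gene. A gene was tested where it was above the floor in a pool compared, and called at 1.5-fold. With 1 array a group there are no p-values, and the number of arrays limits the precision. Calls were tested on simulated data, with 2-fold changes in genes well above the floor. Smaller changes and changes in genes near the floor were not covered. The members, lists and comparisons were chosen with earlier results of these data known. Named genes were the immunoproteasome and constitutive active subunits, the highest and lowest of each structural class, the called subunits and the extremes of each companion list, not all of which are printed; Nfe2l1, Vcp, Tap1, Tap2, Irf8, Gbp2, Psmc1, Psmd14, Psmd3 and the genes of the probe set comparison were chosen after their values were seen. Python 3.11.15 and pandas 2.3.3 were used.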

Additional observations from a re-analysis of the deposited data

How the results depend on the processing

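No paired analysis was possible because each condition has 1 array. Counts of subunits at 1.5-fold, medians and class differences were recomputed under other scalings, floors, gene summaries and calling rules. Of 276 such values 219 moved little (under 0.1 for a log2 median, within 1.5 times for a count) and 57 moved more, all given here. Where they were recomputed, 0 of the single ratios called at 1.5-fold changed sign. Single ratios were not recomputed for every probe set by itself. There, a further Psme4 probe set was at 0.16 in SM22-rtTA against uninduced, where the called ratio was -0.70. Using each transgenic control alone, or the catalytic immunoproteasome subunits alone, was chosen after seeing the data. The causes were not tested beyond what each alternative changes by its construction. With 1 array a condition no value has a replicate error, and Psmb9 in wild type, Psmd9, Psmd10 and Psme3 lay near the floor, which limits their ratios.

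With values as deposited, the median of the subunits was -0.291 in hypoxia against the transgenic mean, with 3 lower, and -0.129 in wild type against that mean, with 0 higher and 4 lower. Quantile normalization gave medians of -0.101 in hypoxia against wild type and -0.031 in wild type against the transgenic mean, with 1 higher in the latter. Under both scalings 1 alpha ring gene was highest in wild type. A floor at the 70th percentile left 0 higher in hypoxia against wild type and 0 lower in hypoxia or wild type against the transgenic mean, 1 higher in SM22-rtTA against uninduced, and class differences of 0.589 (hypoxia against wild type) and -0.56 (wild type against the transgenic mean). A pseudocount of 100 left 0 lower in induced against SM22-rtTA, 1 higher in hypoxia against wild type and 1 higher in wild type against the transgenic mean. With the mean of all probe sets, the medians were 0.143 in induced against SM22-rtTA and -0.025 in hypoxia against the transgenic mean. The class differences were then -0.626 in induced against SM22-rtTA, -0.051 in hypoxia against the transgenic mean, 0.345 in SM22-rtTA against uninduced and -0.905 in wild type against the transgenic mean. By the same summary 4 were higher in wild type against the transgenic mean, 1 was higher and 0 lower in SM22-rtTA against uninduced, 6 regulatory particle genes were lowest in hypoxia and 4 were highest in the induced pool. Counting every probe set by itself gave 6 higher in induced against SM22-rtTA, 6 lower in hypoxia against wild type, 1 higher and 2 lower in hypoxia against the transgenic mean, 3 lower in SM22-rtTA against uninduced and 7 higher in wild type against the transgenic mean. At 2-fold there was 1 higher in hypoxia against wild type and 1 lower in wild type against the transgenic mean, and the other counts that had not been 0 were 0. With genes above the floor in all 5 pools, 1 was higher in SM22-rtTA against uninduced. Calls that also had to lie outside the 3 normal-pressure pools were 0 higher after induction against either control, 1 lower against SM22-rtTA and 0 higher in hypoxia against wild type. The class difference in hypoxia against the transgenic controls was 0.176 with uninduced alone and -0.041 with SM22-rtTA alone, and that of wild type -0.892 with SM22-rtTA alone. With the catalytic subunits alone it was -0.669 in induced against SM22-rtTA, -0.04 in hypoxia and -1.008 in wild type against the transgenic mean.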
